A study of Mus musculus with 12 samples.

Results

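The genes described here are the collagens and a small set of stromal and vascular genes of the mouse olfactory mucosa. They were chosen by symbol: every gene whose symbol is Col followed by digits, a letter and digits, together with Dcn, Lum, Sparc, Fbln1, Pecam1, Cdh5, Kdr and Tek. Of 19938 genes measured by a probe set with 1 symbol, 52 are members, of which 44 are collagens. Those 44 are all the collagen genes with such a symbol in the gene reference used, and 2 members, Col6a5 and Col6a6, had more than 1 probe set. The rule uses symbols only.

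RNA was measured on 12 arrays of cells sorted by fluorescence from olfactory mucosa. The series title names the Kentucky assay, in which a green fluorescent protein (GFP) driven from S100a5 marks olfactory sensory neurons that were recently active, since activity raises transcription of this calcium-binding protein gene in them. The allele of these mice is not given in the labels. The 18 mice, of both sexes and 7 to 12 weeks old, were held singly in clean air chambers for 40 hours, and from 26 hours on they were given 10-second pulses every 20 minutes. Odor mice received a 5% citrus accord and vehicle mice filtered air. Each sample pooled cells of 3 mice, so that 6 pools gave a GFP-positive and a GFP-negative array each. The groups are odor GFP-positive cells (replicates 2, 3 and 4), odor GFP-negative cells (replicates 2, 3 and 4), vehicle GFP-positive cells (replicates 1, 2 and 4) and vehicle GFP-negative cells (replicates 1, 2 and 4). GFP-negative cells are all sorted cells without the label and hold neurons as well as other cell types.

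Collagens are triple-helical proteins of the extracellular matrix. Fibril-forming collagens give tissues their tensile strength, network-forming collagens build basement membranes, and others decorate fibrils, span cell membranes or anchor epithelia. Beneath the olfactory epithelium lies the lamina propria, a connective tissue with fibroblasts, blood vessels, axon bundles and glands, over cartilage and bone. Fibroblasts make most of the fibrillar collagen of connective tissue, together with small leucine-rich proteoglycans such as decorin (Dcn) and lumican (Lum), while endothelial cells line the vessels and are recognised by junction proteins (Pecam1, Cdh5) and growth factor receptors (Kdr, Tek).

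Promoter sequences from RefSeq (GRCm38.p6) were used to show the upstream regions of genes that the results turn on. An entry was matched for 39 of the 52 members. Cdh5, Pecam1, Dcn, Lum, Col1a1, Col2a1, Col4a3, Col5a2, Col9a3, Col12a1, Col14a1, Col22a1 and Col26a1 are named only. Sparc and Tek are shown because they are the genes with an entry that were lower in GFP-positive cells of both treatments, and Col4a6 because it was the collagen with the largest called rise in GFP-positive cells. Each line gives the 250 bases before the start that the promoter table uses for the gene, 5′ to 3′ on the gene's strand. Capitals mark GGAA or its reverse complement TTCC, the core letters that ETS factors, a family with members known from endothelial cells such as Erg, bind.
Sparc: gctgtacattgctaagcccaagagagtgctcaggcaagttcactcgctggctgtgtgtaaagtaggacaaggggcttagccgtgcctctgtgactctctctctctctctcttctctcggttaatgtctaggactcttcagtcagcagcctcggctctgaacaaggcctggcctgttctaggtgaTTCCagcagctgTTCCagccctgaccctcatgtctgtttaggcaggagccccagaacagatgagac
Tek: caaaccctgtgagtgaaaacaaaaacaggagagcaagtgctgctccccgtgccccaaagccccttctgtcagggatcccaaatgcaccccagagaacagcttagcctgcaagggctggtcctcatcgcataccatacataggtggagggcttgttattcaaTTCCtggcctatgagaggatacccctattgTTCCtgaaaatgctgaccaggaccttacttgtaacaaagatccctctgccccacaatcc
Col4a6: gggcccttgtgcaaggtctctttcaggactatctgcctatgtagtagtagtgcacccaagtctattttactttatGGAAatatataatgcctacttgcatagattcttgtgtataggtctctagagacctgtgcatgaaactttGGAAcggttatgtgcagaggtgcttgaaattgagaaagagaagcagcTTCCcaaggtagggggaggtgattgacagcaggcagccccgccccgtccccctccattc
The Sparc stretch lies at chr11:55420081-55420330 on the minus strand, the Tek stretch at chr4:94739039-94739288 on the plus strand and the Col4a6 stretch at chrX:141474077-141474326 on the minus strand. That start is not always the outermost one: 203 bases of the Tek stretch and 19 of the Col4a6 stretch lie inside the gene as RefSeq annotates it, while the Sparc stretch lies outside. Sparc and Tek hold 2 TTCC each, and Col4a6 holds 2 GGAA and 1 TTCC. At least 1 GGAA on either strand was present in 39 of the 39 member promoters (100%), against 93.4% of 27025 promoters of the same length, while the median number of matches was 2 in the member promoters and 3 in all. TATAAA on either strand was present in 5 of the 39 (12.8%), against 13.0% of all promoters. GGGCGG on either strand was present in 22 of the 39 (56.4%), against 32.9% of all. A GGGCGG that runs into AA also holds GGAA, so these matches can overlap. The GC content was 58.8% in the median member promoter and 52.0% in the median of all promoters, a difference that bears on the GC-rich GGGCGG and was not corrected for. None of these matches was tested as a binding site.

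The libraries carried the neuronal enrichment that the sort aims at, within a narrow range. Omp, the olfactory marker protein of mature sensory neurons, averaged 13.48 ± 0.03 in odor GFP-positive and 13.16 ± 0.12 in odor GFP-negative cells (log2, SD, n = 3 each), so mature neurons were abundant in both fractions. It was higher in GFP-positive cells by 0.33 (SE 0.08) in odor and by 0.31 (SE 0.08) in vehicle mice. S100a5 was higher by 0.31 (SE 0.10, adjusted p = 0.0167) in odor mice, and in vehicle mice its difference was 0.19 (SE 0.10, adjusted p = 0.123). Its values were low: 6.35 in odor GFP-positive, 6.05 in odor GFP-negative, 6.35 in vehicle GFP-positive and 6.16 in vehicle GFP-negative cells. The lower quartile of all genes lay between 6.25 and 6.41 on the arrays. Without detection calls it is unknown how well this probe set could show a difference. Of 14 sensory neuron genes, 13 were higher in GFP-positive cells of odor and 12 of vehicle mice. All 17 leukocyte genes were lower in GFP-positive cells of both treatments, with medians of -3.84 in odor and -3.83 in vehicle mice, and so were all 9 sustentacular cell genes, with medians of -1.81 and -1.84. All p-values are from a moderated linear model in limma over 19938 genes, with Benjamini-Hochberg adjustment, and a gene is called where its adjusted p is under 0.05. Values are on a log2 scale, on which a difference of 1 is a 2-fold change. In sorted cell pools, fewer cells of a type and less RNA per cell cannot be told apart.

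GFP-positive cells carried less RNA of 5 of the 8 stromal and vascular genes, in both treatments. These were Dcn and Sparc among the matrix genes and Pecam1, Tek and Cdh5 among the endothelial genes, with differences between -0.29 (Cdh5 in odor mice) and -2.07 (Dcn in odor mice) on the log2 scale. The other members of these groups, Lum, Fbln1 and Kdr, did not pass the test in either treatment. The collagens were nearly level between the fractions: 4 of 44 were called in 1 of the treatments, none in both, and the largest called difference was 0.33. Over all 52 members, 7 (13.5%) were called in odor mice, 2 higher and 5 lower, against 52.2% of all genes, of which 33.5% higher and 18.7% lower. In vehicle mice 7 members (13.5%) were called, 0 higher and 7 lower, against 48% of all genes, of which 29.9% higher and 18.2% lower. Called lower in both treatments were 5 members (9.62%), against 16.5% of all genes, and called higher in both were 0 members, against 25.6%. The arrays of the fractions did not overlap for 8 members (15.4%) in odor mice, against 60.7% of all genes, and for 10 members (19.2%) in vehicle mice, against 57.4% of all genes. At an unadjusted p under 0.05, 10 members passed in odor mice, against 58.3% of all genes, and 8 in vehicle mice, against 53% of all genes. The share of members called was thus below that of all genes in both treatments, while the arrays of the fractions did not overlap in either treatment for Dcn, Sparc, Pecam1 and Tek.

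Decorin, a small leucine-rich proteoglycan that binds collagen fibrils, showed the largest difference of any member. Dcn had 7.48, 7.80 and 7.27 in odor GFP-positive cells, against 9.53, 10.00 and 9.24 in odor GFP-negative cells. In vehicle mice it had 8.10, 7.84 and 7.07 in GFP-positive cells, against 9.81, 9.74 and 9.02 in GFP-negative cells. Every GFP-negative array lay above every GFP-positive array, and replicate 4 was the lowest of both fractions in both treatments. The difference, GFP-positive minus GFP-negative, was -2.07 (SE 0.28, adjusted p = 7.37e-05) in odor and -1.86 (SE 0.28, adjusted p = 0.000178) in vehicle mice, that is 4.21-fold and 3.62-fold lower in GFP-positive cells. Within the pools, where both fractions come from the same mice, the difference lay between -2.20 and -1.97 in the 3 odor pools and between -1.95 and -1.72 in the 3 vehicle pools.

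Sparc, a collagen-binding matricellular glycoprotein also called osteonectin, differed by less. It had 7.94, 8.12 and 7.93 in odor GFP-positive cells, against 9.04, 9.10 and 8.74 in odor GFP-negative cells. In vehicle mice Sparc had 7.95, 8.10 and 7.69 in GFP-positive cells, against 9.03, 8.86 and 8.62 in GFP-negative cells. The fractions did not overlap, and replicate 4 was again the lowest of each group. The difference was -0.97 (SE 0.13, adjusted p = 8.31e-05) in odor and -0.92 (SE 0.13, adjusted p = 0.000126) in vehicle mice, that is 1.95-fold and 1.90-fold lower in GFP-positive cells.

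Lumican and fibulin 1 did not follow them. Lum, a proteoglycan of the decorin family, had 4.50, 4.50 and 4.42 in odor GFP-positive cells, against 4.43, 4.93 and 4.34 in odor GFP-negative cells. Its difference was -0.09 (SE 0.16, adjusted p = 0.622, 95% interval -0.43 to 0.24) in odor and -0.14 (SE 0.16, adjusted p = 0.516, interval -0.48 to 0.20) in vehicle mice. The arrays of both fractions overlapped in both treatments. Fbln1, a glycoprotein of elastic fibres and basement membranes, had 6.45, 6.67 and 6.75 in odor GFP-positive cells, against 6.59, 6.84 and 6.65 in odor GFP-negative cells. The fractions overlapped, and the difference was -0.07 (SE 0.10, adjusted p = 0.565) in odor and -0.16 (SE 0.10, adjusted p = 0.205) in vehicle mice. The intervals of Lum and Fbln1 do not reach the fall of Dcn or Sparc in either treatment. Lum averaged 4.54 over the 12 arrays, below the lower quartile of all genes. Without detection calls it is unknown whether its probe set could show such a fall at that level. In the gene reference Lum is the direct protein-coding neighbour of Dcn.

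Pecam1, an adhesion molecule of endothelial junctions that platelets and leukocytes also make, was the endothelial member with the largest difference. It had 6.42, 6.86 and 6.68 in odor GFP-positive cells, against 8.05, 8.24 and 8.49 in odor GFP-negative cells. In vehicle mice Pecam1 had 6.55, 6.72 and 6.55 in GFP-positive cells, against 8.18, 8.22 and 8.27 in GFP-negative cells. The fractions were apart by more than 1 log2 unit on every array. The difference was -1.61 (SE 0.12, adjusted p = 4.9e-07) in odor and -1.62 (SE 0.12, adjusted p = 5.33e-07) in vehicle mice, about 3.04-fold and 3.07-fold. The summed level of the 17 leukocyte genes moved with it: it lay between 11.98 and 12.95 in odor GFP-positive, between 15.89 and 16.27 in odor GFP-negative, between 12.17 and 12.27 in vehicle GFP-positive and between 15.92 and 16.08 in vehicle GFP-negative cells (log2 of the sum). Their part in the fall of Pecam1 was not tested.

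Tek, the angiopoietin receptor of endothelial cells, differed by less. It had 5.75, 5.95 and 5.72 in odor GFP-positive cells, against 6.37, 6.32 and 6.33 in odor GFP-negative cells. In vehicle mice Tek had 5.63, 5.79 and 5.93 in GFP-positive cells, against 6.37, 6.24 and 6.13 in GFP-negative cells. No GFP-positive array reached a GFP-negative array. The difference was -0.53 (SE 0.09, adjusted p = 0.00052) in odor and -0.46 (SE 0.09, adjusted p = 0.00134) in vehicle mice. Tek averaged 6.04 over the 12 arrays, below the lower quartile of all genes, so the size of its fall may be understated by a low signal.

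Cdh5, the VE-cadherin of endothelial junctions, was lower with a smaller margin. It had 7.07, 6.97 and 6.86 in odor GFP-positive cells, against 7.29, 7.42 and 7.05 in odor GFP-negative cells, so that the lowest GFP-negative array lay below the highest GFP-positive array. In vehicle mice the arrays did not overlap, with 6.90, 6.84 and 6.67 in GFP-positive cells, against 7.48, 7.34 and 7.29 in GFP-negative cells. The difference was -0.29 (SE 0.10, adjusted p = 0.0347) in odor and -0.57 (SE 0.10, adjusted p = 0.000674) in vehicle mice. The call in odor mice was lost without any of odor GFP-positive replicates 3 or 4 or odor GFP-negative replicates 2 or 3 (adjusted p between 0.0747 and 0.124), and the difference then lay between -0.29 and -0.20. It was also lost after a second quantile normalization (-0.18, adjusted p = 0.133) and with the 2 groups alone (adjusted p = 0.0666). The treatments' differences were not shown to differ for Cdh5 (interaction 0.28, SE 0.15, adjusted p = 0.971).

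Kdr, the main receptor for vascular endothelial growth factor, was not called. It had 6.48, 6.62 and 6.42 in odor GFP-positive cells, against 6.60, 6.84 and 6.27 in odor GFP-negative cells. In vehicle mice Kdr had 6.40, 6.43 and 6.44 in GFP-positive cells, against 6.83, 6.61 and 6.46 in GFP-negative cells. The odor arrays overlapped, while the vehicle arrays stood apart by a narrow gap. The difference was -0.06 (SE 0.13, adjusted p = 0.698) in odor and -0.21 (SE 0.13, adjusted p = 0.214) in vehicle mice, with 95% intervals of -0.34 to 0.22 and of -0.49 to 0.07. The plot of the 8 genes by array shows these splits, with lines that join the fractions of a pool.

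**Figure D1:**
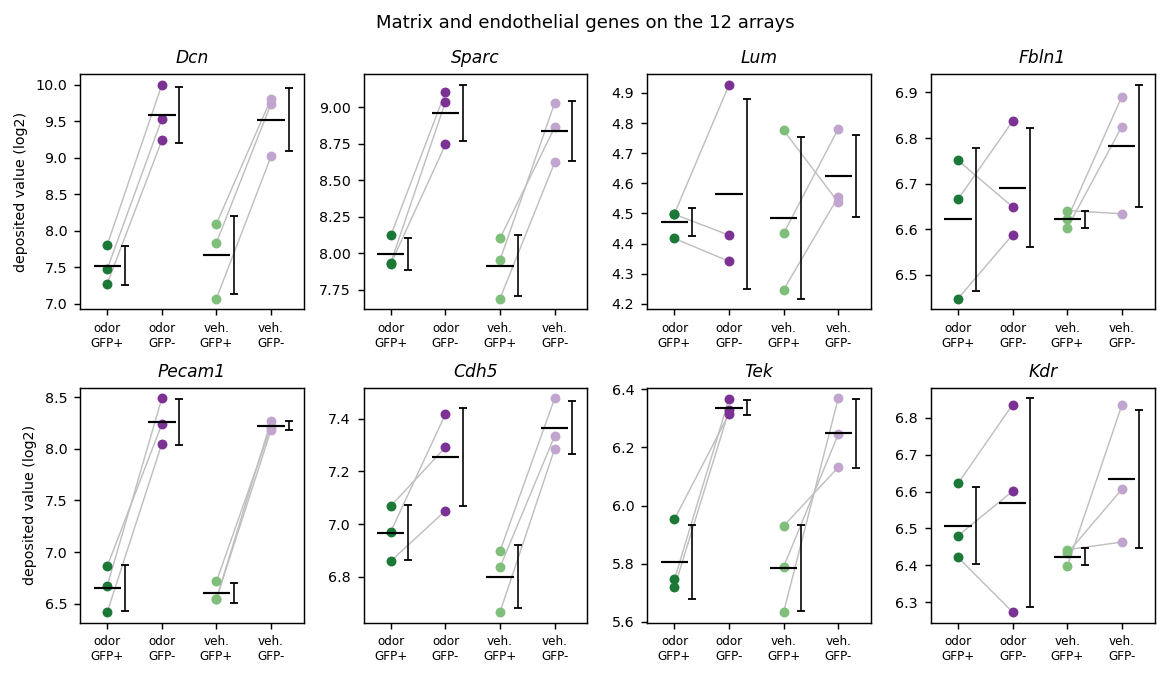
Deposited log2 values (vertical axis, a scale of its own for each gene) of the 8 matrix and endothelial genes on the 12 arrays, by group on the horizontal axis. Points are arrays, grey lines join the GFP-positive and GFP-negative arrays of a pool, black bars are group means and whiskers the SD of 3 arrays. Dcn, Sparc, Pecam1 and Tek are lower in GFP-positive cells of all 6 pools, with no overlap between fractions, while Lum, Fbln1 and Kdr run the other way in at least 1 pool.

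Of the 44 collagens, 2 were called higher and 0 lower in GFP-positive cells of odor mice, and 0 higher and 2 lower in vehicle mice. The differences of the 44 ran from -0.11 (Col1a2) to 0.33 (Col4a6) in odor mice, with a median of 0.10, and from -0.25 (Col9a3) to 0.11 (Col8a2) in vehicle mice, with a median of -0.06. No 95% interval of a collagen reached below -0.37 (Col1a2) or above 0.52 (Col4a6) in odor mice, which is 1.29-fold lower and 1.44-fold higher. In vehicle mice the intervals ended at -0.46 (Col14a1) and 0.32 (Col8a2), or 1.37-fold lower and 1.25-fold higher. A difference of the size of Dcn, Pecam1 or Sparc therefore lies outside the interval of every collagen probe set. No collagen lay above the upper quartile of all genes on any array. Without detection calls it is unknown which collagen probe sets were above background and could show such a difference. The plot of the sort differences shows the collagens in a narrow band beside the outlying stromal and vascular genes.

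**Figure D2:**
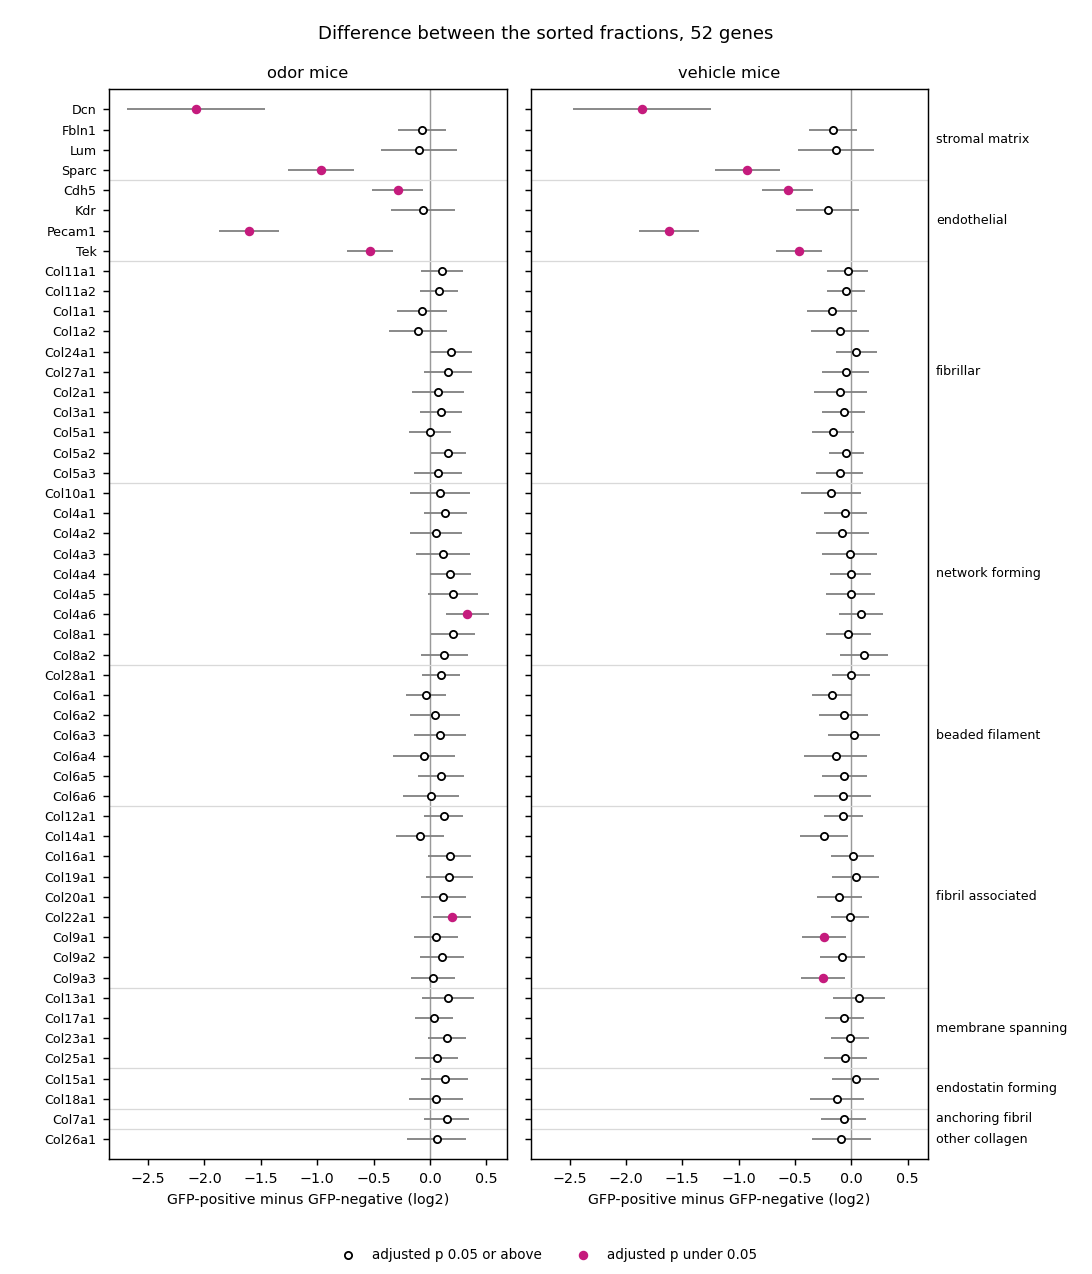
Difference between GFP-positive and GFP-negative cells (log2, horizontal axis) of the 52 genes, in odor mice on the left and vehicle mice on the right, with the 95% interval of the limma fit as a line and filled points where the adjusted p is under 0.05. Genes are grouped by role, and the collagens lie within -0.11 to 0.33 in odor and within -0.25 to 0.11 in vehicle mice. Most collagens lie right of 0 in odor mice and left of it in vehicle mice. Over the 52 genes together, the side of 0 changes with the scaling of the arrays.

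The side of 0 on which most of the 52 members lay changed with the scaling of the arrays. It changed after cyclic loess in odor mice and after a second quantile normalization in vehicle mice. As deposited, all 8 non-collagen members lay below 0 in both treatments, so every member above 0 was a collagen. In the values as deposited, all 19938 genes had a median difference of 0.13 in odor mice and 0.06 in vehicle mice, while the 52 members had medians of 0.09 in odor and -0.07 in vehicle mice. Cyclic loess scaling moved the median of all genes to 0.00 in odor mice and turned the split of all called genes to 3835 higher and 5286 lower, against 6687 higher and 3729 lower as deposited. In vehicle mice the split of all called genes was 3857 higher and 4942 lower after cyclic loess, against 5958 higher and 3619 lower as deposited. Of the 52 members, 38 lay above 0 in odor mice as deposited, 42 after a second quantile normalization and 22 after cyclic loess. In vehicle mice 8 members lay above 0 as deposited, 33 after the second quantile normalization and 10 after cyclic loess. Relative to the median of all genes, the member median was -0.05 in odor and -0.13 in vehicle mice as deposited, and -0.03 in odor and -0.12 in vehicle mice after cyclic loess, against 0.05 in odor and -0.05 in vehicle mice after the second quantile normalization.

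Fibrillar collagens, the 11 chains that assemble the banded fibrils of connective tissue, had no call in either treatment. Col1a1, a chain of the type I collagen of bone, tendon and dermis, had 8.04, 8.14 and 8.06 in odor GFP-positive cells, against 8.03, 8.34 and 8.08 in odor GFP-negative cells. In vehicle mice it had 7.88, 8.02 and 8.02 in GFP-positive cells, against 8.16, 7.96 and 8.31 in GFP-negative cells. The arrays overlapped in both treatments, with differences of -0.07 (SE 0.10, adjusted p = 0.567, 95% interval -0.29 to 0.15) in odor and -0.17 (SE 0.10, adjusted p = 0.202, interval -0.39 to 0.05) in vehicle mice. Col1a2, its partner chain, differed by -0.11 (SE 0.12, adjusted p = 0.449) in odor and -0.10 (SE 0.12, adjusted p = 0.551) in vehicle mice. Col3a1, the type III collagen of vessel walls and dermis, differed by 0.10 (SE 0.09, adjusted p = 0.35) in odor and -0.07 (SE 0.09, adjusted p = 0.578) in vehicle mice. The cartilage chains Col2a1, Col11a1 and Col11a2 differed by 0.07 to 0.11 in odor and by -0.10 to -0.03 in vehicle mice, and the type V chains Col5a1, Col5a2 and Col5a3, which take part in starting fibrils, by 0.00 to 0.16 in odor and by -0.16 to -0.04 in vehicle mice. The class median was 0.08 in odor and -0.07 in vehicle mice.

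Network-forming collagens, which include the type IV chains of basement membranes, held the largest rise. Col4a6, a minor type IV chain of some epithelial and smooth muscle basement membranes, had 6.48, 6.67 and 6.66 in odor GFP-positive cells, against 6.17, 6.46 and 6.20 in odor GFP-negative cells. In vehicle mice it had 6.55, 6.57 and 6.47 in GFP-positive cells, against 6.50, 6.41 and 6.44 in GFP-negative cells. The odor arrays did not overlap, and the vehicle arrays lay close to each other. Its difference was 0.33 (SE 0.09, adjusted p = 0.0072), a 1.26-fold rise, in odor mice and 0.09 (SE 0.09, adjusted p = 0.474) in vehicle mice, and these were not shown to differ (interaction 0.24, SE 0.12, adjusted p = 0.971). Col4a5, its direct neighbour in the gene reference, differed by 0.20 (adjusted p = 0.106) in odor and -0.01 (adjusted p = 0.971) in vehicle mice. Col4a1 and Col4a2, the chains of nearly all basement membranes, vessels included, differed by 0.14 and 0.05 in odor and by -0.06 and -0.08 in vehicle mice, with no call. Over the 9 genes of the class, which also holds Col4a3, Col4a4, Col8a1, Col8a2 and Col10a1, the differences ran from 0.05 to 0.33 in odor and from -0.18 to 0.11 in vehicle mice.

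Fibril-associated collagens, which sit on the surface of fibrils, held the other calls. Col22a1, known from tissue junctions such as that of muscle and tendon, had 7.20, 7.36 and 7.30 in odor GFP-positive cells, against 7.04, 7.23 and 7.00 in odor GFP-negative cells. The odor arrays overlapped by 1 pair, and the difference was 0.20 (SE 0.08, adjusted p = 0.0494), against -0.01 (SE 0.08, adjusted p = 0.918) in vehicle mice. The call of Col22a1 was lost without any of odor GFP-positive replicates 3 or 4 or odor GFP-negative replicates 2 or 4 (adjusted p between 0.114 and 0.168). It was also lost with the pool as a replicate block (adjusted p = 0.0545), after cyclic loess (0.11, adjusted p = 0.146) and with the 2 groups alone (adjusted p = 0.114). Col9a3, a chain of the type IX collagen of cartilage, had 8.077, 8.014 and 8.003 in vehicle GFP-positive cells, against 8.191, 8.212 and 8.449 in vehicle GFP-negative cells. The vehicle arrays did not overlap, and the difference was -0.25 (SE 0.09, adjusted p = 0.0346), against 0.03 (SE 0.09, adjusted p = 0.815) in odor mice. The call of Col9a3 was lost without any of the 3 vehicle GFP-positive arrays (adjusted p between 0.0545 and 0.0935), without vehicle GFP-negative replicate 4, the highest array (-0.17, adjusted p = 0.145), and after the second quantile normalization (adjusted p = 0.126).

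Col9a1, another chain of type IX collagen, had 6.78, 6.88 and 6.81 in vehicle GFP-positive cells, against 7.15, 7.02 and 7.02 in vehicle GFP-negative cells. These arrays did not overlap either, with a difference of -0.24 (SE 0.09, adjusted p = 0.0432), against 0.06 (SE 0.09, adjusted p = 0.615) in odor mice. The call was lost with the pool as a replicate block (adjusted p = 0.0558), after the second quantile normalization (-0.10, adjusted p = 0.288) and without any 1 of the 6 vehicle arrays (adjusted p between 0.0582 and 0.144). Col9a2, also a type IX chain, differed by 0.11 (adjusted p = 0.338) in odor and -0.08 (adjusted p = 0.522) in vehicle mice. Among the other fibril-associated genes, Col14a1 came nearest to a call in vehicle mice, at -0.24 (adjusted p = 0.059), and Col12a1, Col16a1, Col19a1 and Col20a1 lay between 0.12 and 0.18 in odor and between -0.11 and 0.04 in vehicle mice.

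The remaining classes had no call. The 7 beaded filament genes, Col6a1 to Col6a6 and Col28a1, ran from -0.05 (Col6a4) to 0.10 (Col6a5) in odor and from -0.17 (Col6a1) to 0.02 (Col6a3) in vehicle mice. Of the 4 membrane-spanning collagens, Col13a1, Col17a1, Col23a1 and Col25a1, Col17a1 is a hemidesmosome protein of basal epithelial cells, and it differed by 0.04 (adjusted p = 0.712) in odor and -0.06 (adjusted p = 0.577) in vehicle mice. The class ran from 0.04 to 0.16 in odor and from -0.06 to 0.06 in vehicle mice. Col15a1 and Col18a1, basement membrane collagens whose ends release endostatin-like fragments, differed by 0.13 and 0.06 in odor and by 0.04 and -0.12 in vehicle mice. Col7a1, the anchoring fibril collagen of skin, differed by 0.15 (adjusted p = 0.188) in odor and -0.07 (adjusted p = 0.597) in vehicle mice, and Col26a1 by 0.06 (adjusted p = 0.68) in odor and -0.09 (adjusted p = 0.599) in vehicle mice.

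A single array bore on the count of collagens. Without odor GFP-negative replicate 3, 16 members were called higher in GFP-positive cells of odor mice, against 2 with all arrays and 1 to 3 without any other odor array. Over all 19938 genes, 7021 were called higher without that array, against 6687 with all arrays. That array was the highest of its group for most collagens: the mean of the 44 was 7.40 in odor GFP-negative replicate 3, against 7.15 and 7.10 in replicates 2 and 4. In odor GFP-positive cells the mean was 7.27, 7.34 and 7.33. In vehicle mice it was 7.26, 7.31 and 7.25 in GFP-positive cells, against 7.30, 7.26 and 7.45 in GFP-negative cells. The group means were 7.31 ± 0.04 in odor GFP-positive, 7.22 ± 0.16 in odor GFP-negative, 7.28 ± 0.03 in vehicle GFP-positive and 7.34 ± 0.10 in vehicle GFP-negative cells (SD, n = 3 each). GFP-negative arrays thus varied more among themselves in their collagen mean than GFP-positive arrays did, and the ranges of the 4 groups overlapped. Without 1 array, the median sort difference of the 52 members ran from 0.03 (without odor GFP-negative replicate 4) to 0.18 (without odor GFP-negative replicate 3) in odor mice. In vehicle mice it ran from -0.10 (without vehicle GFP-negative replicate 2) to -0.01 (without vehicle GFP-negative replicate 4).

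The collagens moved together from array to array, and in a small range. Over the 12 arrays a collagen spanned between 0.25 (Col17a1) and 0.64 (Col6a4) log2 units, with a median span of 0.41, against a median of 0.56 over all genes. After each group's mean was removed, the median correlation between 2 collagens was 0.746 over 946 pairs (quartiles 0.606 and 0.84), against 0.01 over all pairs of genes (quartiles -0.31 and 0.33). This describes 12 arrays from 6 pools, which share their scaling, and carries no test. The lower quartile of all genes followed the same order in GFP-negative cells: it was 6.30, 6.39 and 6.25 in odor replicates 2, 3 and 4 and 6.37, 6.36 and 6.41 in vehicle replicates 1, 2 and 4. The part of array scaling in the shared movement of the collagens was not tested. The stromal genes that fell did not move with the collagens: with the collagen mean, Dcn had a correlation of 0.159 and Sparc of 0.196, while Dcn and Sparc had 0.88 with each other over the same 12 arrays. This was not particular to the stromal pair: the endothelial Cdh5 had 0.80 with Dcn and 0.778 with Sparc. Pecam1 had -0.037 with Dcn, -0.068 with Sparc and -0.486 with Cdh5. Lum, which was not called between fractions, had 0.827 with the collagen mean. The plot of collagen deviations shows whole columns that are high or low together.

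**Figure D3:**
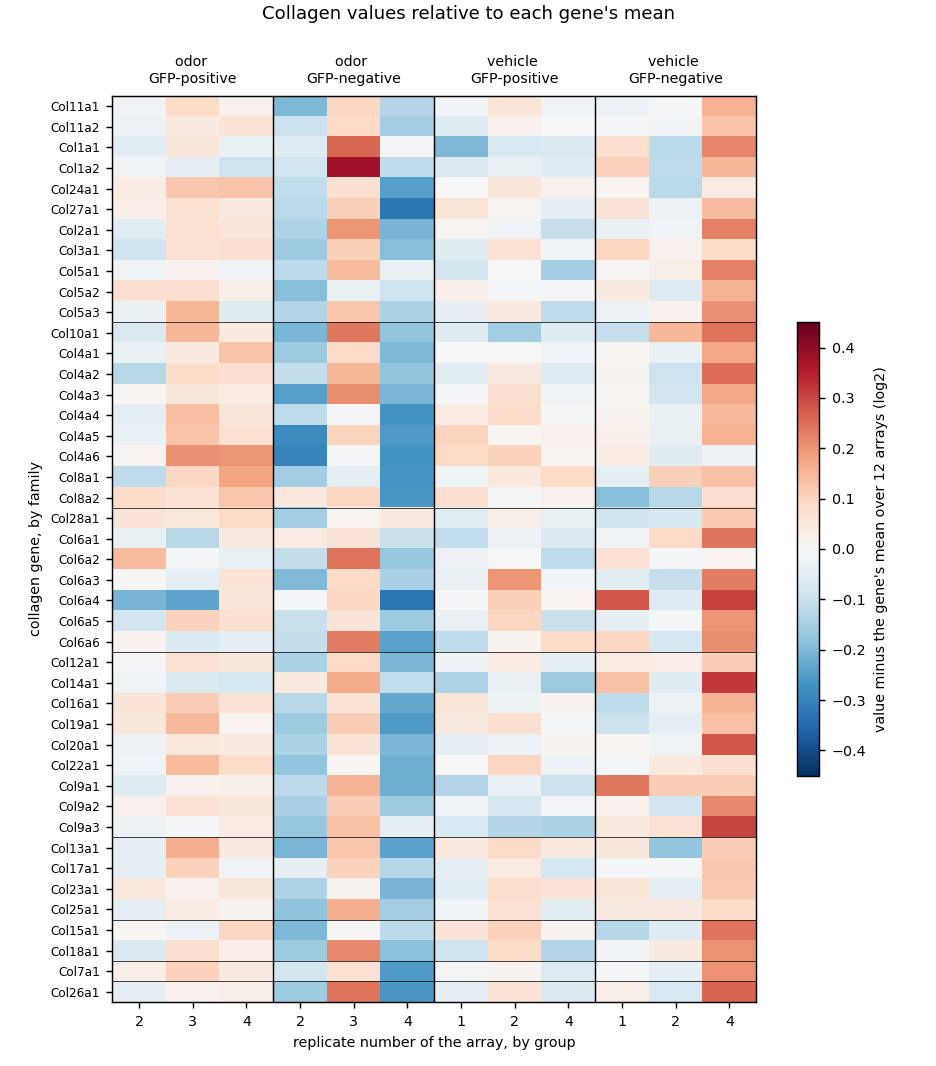
Value of each of the 44 collagens (rows, by family) on each of the 12 arrays (columns, by group and replicate) minus that gene's mean over the 12 arrays, on a log2 colour scale with red above and blue below the mean. Odor GFP-negative replicate 3 and vehicle GFP-negative replicate 4 are red for most collagens, and odor GFP-negative replicates 2 and 4 are blue, while the GFP-positive columns are pale.

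No member was called between odor and vehicle mice. In GFP-positive cells 0 of 52 members passed an adjusted p of 0.05, against 0.00502% of all genes (1 gene), and 0 members had an unadjusted p under 0.05, against 1.3% of all genes. The arrays of both treatments did not overlap for 7 members (13.5%), against 7.93% of all genes. The members' median difference was 0.04, against 0.00 for all genes, and 45 of 52 lay above 0 as deposited, 36 after the second quantile normalization and 35 after cyclic loess. Without 1 array that median ran from 0.02 (without odor GFP-positive replicate 3) to 0.07 (without odor GFP-positive replicate 2). Among members, the smallest p belonged to Cdh5, at 0.17 (SE 0.10, unadjusted p = 0.135, adjusted p = 1.0). Col6a4 differed by -0.17 (SE 0.13, unadjusted p = 0.213). Next were Col9a3 at 0.12, Col10a1 at 0.13 and Col28a1 at 0.08. Dcn, which varied most among arrays, had 7.48, 7.80 and 7.27 in odor and 8.10, 7.84 and 7.07 in vehicle GFP-positive cells, a difference of -0.15 with a 95% interval of -0.76 to 0.46. These arrays overlapped throughout.

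In GFP-negative cells 0 of 52 members passed, against 0% of all genes (0 genes), with 2 members (3.85%) at an unadjusted p under 0.05, against 6.53% of all genes. The arrays did not overlap for 1 member (1.92%), against 7.44% of all genes. The members' median difference was -0.11, against -0.01 for all genes, and 41 of the 44 collagens lay below 0. Without 1 array the median ran from -0.20 (without odor GFP-negative replicate 3) to -0.05 (without vehicle GFP-negative replicate 4), and it was -0.06 without odor GFP-negative replicate 4. Col8a1, a network-forming collagen of vessel walls and the corneal endothelium, had 6.39, 6.51 and 6.28 in odor GFP-negative cells, against 6.51, 6.66 and 6.68 in vehicle GFP-negative cells. The arrays of Col8a1 did not overlap, by a gap that the second decimal does not show, and the difference was -0.22 (SE 0.09, unadjusted p = 0.0316, adjusted p = 0.732). Col9a1 had 6.79, 7.06 and 6.69 in odor GFP-negative cells, against 7.15, 7.02 and 7.02 in vehicle GFP-negative cells. It overlapped through odor replicate 3, and the difference was -0.21 (SE 0.09, unadjusted p = 0.0351, adjusted p = 0.732). By unadjusted p, Col22a1, Col5a2 and Col4a4 came next, at -0.17, -0.15 and -0.17. Without odor GFP-negative replicate 3, 28 of the 52 members had an unadjusted p under 0.05 in this comparison, against 2836 of 19938 genes. After adjustment 0 members were called. The collagens moved together from array to array, so these members do not count as separate results. The plot of the odor differences shows intervals that cross or touch 0 for nearly every gene.

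**Figure D4:**
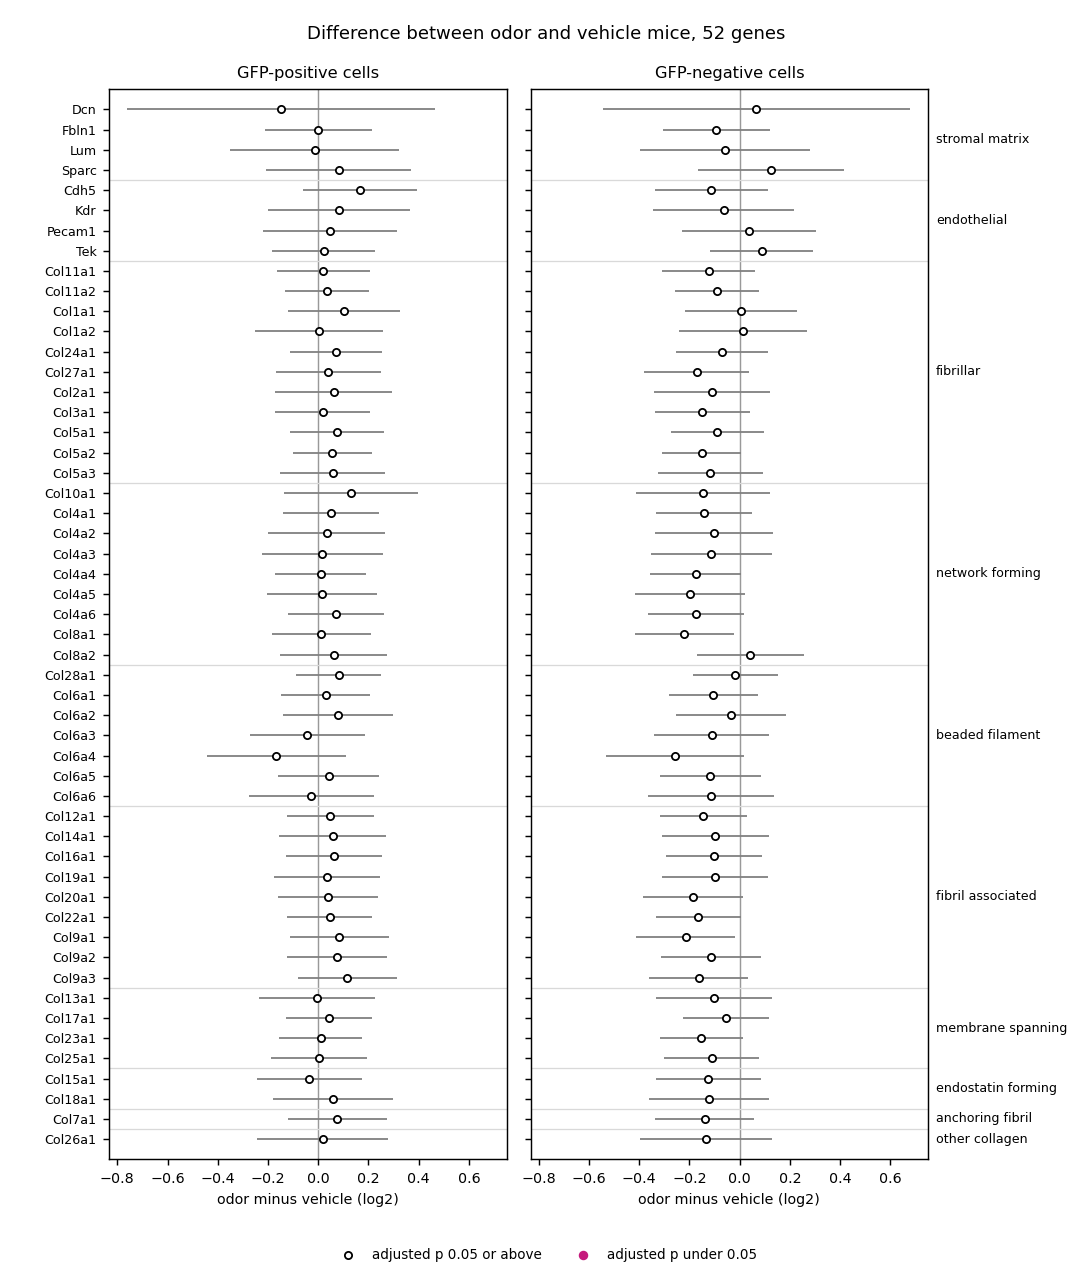
Difference between odor and vehicle mice (log2, horizontal axis) of the 52 genes, in GFP-positive cells on the left and GFP-negative cells on the right, with the 95% interval of the limma fit as a line. No gene has an adjusted p under 0.05, the collagens of GFP-negative cells lie mostly left of 0, and Dcn has the widest interval.

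The difference between the fractions was also compared between treatments. For the sort difference in odor minus that in vehicle mice, 0 of 52 members were called, against 0.00502% of all genes (1 gene), and 2 members (3.85%) had an unadjusted p under 0.05, against 4.23% of all genes. The smallest p belonged to Col9a1 at 0.30 (SE 0.13, adjusted p = 0.971) and Col9a3 at 0.28 (SE 0.13, adjusted p = 0.971). By p they were followed by Col5a2 at 0.21, Col4a6 at 0.24 and Col22a1 at 0.21. The interaction was above 0 for 43 of the 44 collagens, with a median of 0.16. Since the collagens moved together from array to array, their shared sign does not count as separate results. Over the 52 members the median was 0.15, against 0.02 for all genes. After cyclic loess it was 0.08, against -0.02 for all genes. Without 1 array the member median of the deposited values ran from 0.09 (without vehicle GFP-negative replicate 4) to 0.24 (without odor GFP-negative replicate 3). This comparison uses the same arrays as the sort and odor comparisons, so its sign is tied to theirs. Dcn, Sparc, Pecam1 and Tek had interactions of -0.21, -0.04, 0.01 and -0.07, none of them called.

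Other genes of the cell types that the members are known from were counted beside the 18.7% of all genes that were lower in GFP-positive cells of odor mice and the 18.2% in vehicle mice. Of 19 fibroblast genes measured, 8 were lower and 0 higher in GFP-positive cells of odor mice, and 8 lower (42.1%, as in odor mice) and 2 higher in vehicle mice. Their median was -0.07 in odor and -0.19 in vehicle mice. Fn1, fibronectin, was lower, with differences of -4.36 in odor and -4.25 in vehicle mice (SE 0.35 each). Pi16, a gene of adventitial fibroblasts, was at -1.19 and -1.13 (SE 0.16 each), and Lox, the collagen cross-linking enzyme lysyl oxidase, at -0.91 and -0.93 (SE 0.15 each). Fn1 is also made by macrophages. Pdgfra, the growth factor receptor used to recognise fibroblasts, differed by -0.02 (SE 0.14, adjusted p = 0.92) in odor and 0.07 (SE 0.14, adjusted p = 0.734) in vehicle mice. The summed level of the fibroblast genes lay between 10.92 and 11.06 in odor GFP-positive, 12.36 and 13.00 in odor GFP-negative, 10.92 and 11.02 in vehicle GFP-positive and 12.32 and 12.74 in vehicle GFP-negative cells. Fn1 alone averaged 12.15 in odor and 11.76 in vehicle GFP-negative cells on the log2 scale. The gap between the fractions in this sum therefore rests largely on Fn1 and does not describe the fibroblast list as a whole. The part of the fibroblast genes in the fall of Dcn and Sparc was not tested.

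Of 16 endothelial genes measured, 3 (18.8%) were lower and 0 higher in each treatment, a share near that of all genes. Erg, an ETS factor of endothelial cells, was lower, with differences of -1.53 in odor and -1.30 in vehicle mice (SE 0.19 each), and so was Eng, endoglin, with -1.13 in odor and -1.01 in vehicle mice (SE 0.14 each). Flt1, a receptor for vascular endothelial growth factor, differed by -0.16 (adjusted p = 0.127) in odor and by -0.32 (adjusted p = 0.00713) in vehicle mice. Cldn5, an endothelial tight junction gene, differed by 0.00 (adjusted p = 0.959) in odor and by -0.18 (adjusted p = 0.0547) in vehicle mice. The summed endothelial level lay between 10.82 and 10.93 in odor GFP-positive, 11.04 and 11.27 in odor GFP-negative, 10.83 and 10.91 in vehicle GFP-positive and 11.12 and 11.13 in vehicle GFP-negative cells. Of 12 mural cell genes, 2 were lower and 1 higher in odor mice and 3 lower and 0 higher in vehicle mice. Among the mural cell genes Rgs5, a pericyte gene, was lower, with differences of -4.19 in odor and -4.01 in vehicle mice (SE 0.10 each). In each treatment 9 of the 12 were not called. Pdgfrb was one of these, at -0.15 (adjusted p = 0.161) in odor and -0.16 (adjusted p = 0.149) in vehicle mice. Of 13 cartilage and bone genes, 2 were lower (15.4%) and 3 higher (23.1%) in odor mice, and 2 lower (15.4%) and 2 higher (15.4%) in vehicle mice.

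Genes that act on collagens were called in both directions, as genes in general were. Of all genes, 18.7% were lower and 33.5% higher in odor mice, and 18.2% lower and 29.9% higher in vehicle mice. Of 28 genes for collagen folding, modification, secretion and cross-linking, 7 were lower and 4 higher in odor mice and 6 lower and 2 higher in vehicle mice. Tgm2, a cross-linking transglutaminase, was lower, with differences of -0.73 in odor and -0.75 in vehicle mice (SE 0.13 each), while Mia3, which helps load procollagen for export, was higher by 0.52 in odor and 0.61 in vehicle mice (SE 0.11 each). Serpinh1, the collagen chaperone HSP47, differed by -0.06 (adjusted p = 0.751) in odor and -0.22 (adjusted p = 0.232) in vehicle mice. Of 14 genes for collagen degradation and its inhibitors, 6 were lower (42.9%) and 1 higher (7.14%) in odor mice. In vehicle mice 5 of them were lower (35.7%) and 1 higher (7.14%). Mmp8 and Mmp9, the neutrophil collagenase and a gelatinase stored by neutrophils, were lower. Mmp8 differed by -5.14 in odor and -5.31 in vehicle mice (SE 0.44 each), and Mmp9 by -4.39 in odor and -4.42 in vehicle mice (SE 0.35 each).

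Of 11 collagen receptor genes, 5 were lower (45.5%) and 1 higher (9.09%) in odor mice. In vehicle mice 7 of them were lower (63.6%) and 1 higher (9.09%). The receptors that fell most include Cd44, a matrix receptor of many cells and of leukocytes, at -3.51 in odor and -3.62 in vehicle mice (SE 0.17 each), and Lair1, an inhibitory collagen receptor of immune cells, at -1.27 in odor and -1.15 in vehicle mice (SE 0.09 each). Itga1 and Itgb1, which pair as a collagen-binding integrin, were both lower. Itga1 differed by -1.03 in odor and -0.99 in vehicle mice (SE 0.14 each), and Itgb1 by -1.13 in odor and -0.94 in vehicle mice (SE 0.07 each). Of 18 basement membrane glycoprotein genes, 5 (27.8%) were lower in each treatment. Among them 2 (11.1%) of the 18 were higher in odor and 1 (5.56%) in vehicle mice. Lama4, a laminin chain of vessels, was lower, at -0.47 in odor and -0.66 in vehicle mice (SE 0.08 each). Pxdn, the peroxidase that cross-links type IV collagen, was higher by 0.85 in odor and 0.64 in vehicle mice (SE 0.16 each). Of 20 other small leucine-rich and matricellular genes, 7 (35.0%) were lower and 0 higher in each treatment. Among these Thbs1, thrombospondin 1, differed by -3.40 in odor and -3.61 in vehicle mice (SE 0.50 each), and Vcan, versican, by -3.36 in odor and -2.71 in vehicle mice (SE 0.37 each). No gene of these lists was called between odor and vehicle mice in either fraction. The plot of called shares sets these lists beside the members.

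**Figure D5:**
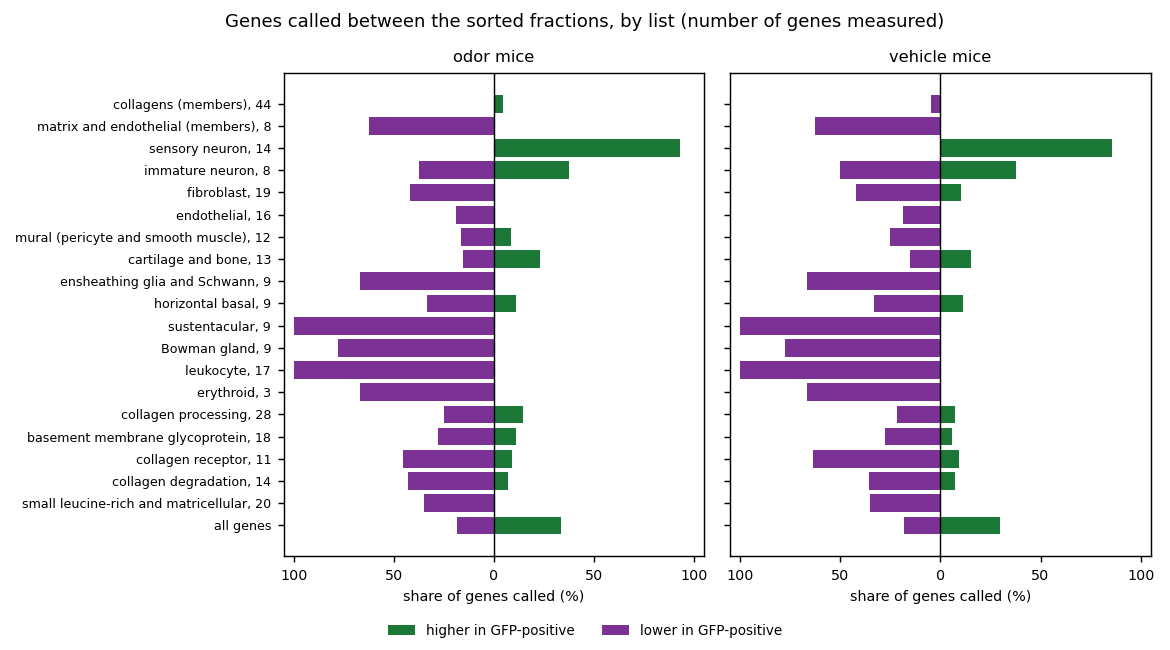
Share of the measured genes of each list (percent, horizontal axis, number of genes beside the name) called higher in GFP-positive cells (right of 0) or lower (left of 0), in odor mice on the left and vehicle mice on the right. The collagens have short bars in both panels, against 33.5% higher and 18.7% lower of all genes in odor mice, while all 17 leukocyte and all 9 sustentacular genes are lower.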

How the data were processed

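RNA of sorted cells was measured on 12 Mouse Gene 1.0 ST arrays. The authors deposited log2 values for each probe set, for which the submitters' processing notes name Affymetrix Expression Console. Version, algorithm and scaling: not given in the sources used here. No further scaling was applied. The table has 0 columns of other samples and no detection calls. Precision is limited by the number of arrays.

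Of 35556 probe sets, 21789 had 1 symbol, 1621 several and 12146 none; only the first kind was used. Of their gene identifiers 21698 matched RefSeq and 91 did not, and 0 symbols changed. For 999 genes with several probe sets the one with the highest mean was kept, which left 19938 genes, with no filter. The 4 groups of 3 arrays shared 1 linear model, run in R 4.3.3 (limma 3.58.1), that held no block for the pool. Its tests were two-sided and moderated, with Benjamini-Hochberg adjustment and a threshold of 0.05. The method was tested on simulated data with known changes between odor and vehicle GFP-positive cells. Of 50 genes changed by 0.25 log2, 1 was called, and of 50 changed by 0.5 log2, 25 were called. At 1.0 and 2.0 log2, 47 and 49 of 50 were called. Figures were made in matplotlib 3.10.9 and tables in pandas 2.3.3, on numpy 2.4.6 and Python 3.11.15. P-values measure the spread between pools of 3 mice.

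Both fractions of a pool come from the same mice. Their deviations from the group means correlated at 0.252, 0.172 and 0.124 in odor pools 2, 3 and 4 and at 0.113, 0.073 and 0.111 in vehicle pools 1, 2 and 4, so the pool as a block was fitted as an alternative. Between odor and vehicle arrays of the same number in the title's code, the correlations were 0.309, 0.185 and 0.268 in GFP-positive and 0.439, -0.206 and 0.281 in GFP-negative cells, and by the title's replicate number -0.171 and 0.268 in GFP-positive and 0.244 and 0.281 in GFP-negative cells. The labels do not say that either number marks a shared day or batch.

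The members, the gene lists and the tests were chosen with earlier results of these data known. Array values were given for members called in either sort comparison, at least in the treatment of the call. The 5 members with the smallest p in each odor comparison and in the interaction were named. Of these, Col6a4, Col10a1, Col28a1, Col5a2 and Col4a4 have their differences only. Genes of a list were drawn from up to 4 with the largest difference among those called in vehicle mice, and not all of them are named. Pdgfra, Pdgfrb, Cldn5, Serpinh1, Itgb1 and the further collagens and stromal genes named were chosen after their values were seen. Alternatives were a second quantile normalization, cyclic loess, a filter on low values, the mean of a gene's probe sets, replicate blocks, fits of 2 groups alone and leaving out each array.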

Additional observations from a re-analysis of the deposited data

How the results depend on the processing

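Dcn, Pecam1, Sparc and Tek kept their direction and their call in both treatments under every alternative run that held them, while counts over the collagens did not. Of the 52 members, 2 were called higher in odor mice as deposited, 19 after a second quantile normalization, and 1 each after cyclic loess, with the replicate block by pool and with the 2 groups alone. Leaving out an array gave 1 to 16, with 16 without odor GFP-negative replicate 3. Over all 19938 genes, 6687 were called higher as deposited, 7603 after the second quantile normalization and 3835 after cyclic loess. Without odor GFP-negative replicate 3, 7021 of all genes were called higher. In vehicle mice 0 members were called higher as deposited and 3 after the second quantile normalization, against 5958 and 6493 of all genes. There 7 members were called lower as deposited and 11 after cyclic loess, against 3619 and 4942 of all genes. Without 1 array, members called lower were 4 to 5 in odor and 5 to 7 in vehicle mice, and 0 were called between treatments. Direction turned only for differences that were not called. In odor mice cyclic loess gave -0.128 for Col9a3, -0.0248 for Col9a1 and -0.0125 for Col3a1, and the second quantile normalization gave 0.0161 for Col1a1 and 0.0072 for Col1a2. In vehicle mice the second quantile normalization gave 0.152 for Col22a1, 0.0181 for Col1a2 and 0.0603 for Col3a1. Without 1 array, the odor differences ran from -0.0455 to 0.105 for Col9a3, from -0.0229 to 0.163 for Col9a1, from -0.207 to 0.0861 for Lum, from -0.134 to 0.0176 for Fbln1, from -0.211 to 0.0705 for Kdr, from -0.133 to 0.0255 for Col1a1 and from -0.196 to 0.051 for Col1a2, and the vehicle difference of Col22a1 from -0.0474 to 0.0101. Lum, Fbln1, Kdr, Col1a1 and Col1a2 turned without odor GFP-negative replicate 3. The cause of these changes was not tested.

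With the replicate block by pool, Col22a1 in odor mice (adjusted p = 0.0545) and Col9a1 in vehicle mice (adjusted p = 0.0558) lost their calls, and no other member named in the report changed its call. A block by the title's replicate number, which the labels do not back as a pairing of odor with vehicle mice, gave -0.0087 for Col10a1 in GFP-positive cells and left 0 members called, with 16 of 52 above 0. With a replicate block by the title's code number 0 members were called between treatments, with an unadjusted p under 0.05 for 0 members in GFP-positive cells and for 3 in the GFP-negative fraction. The low-value filter kept 48 of the 52 members and left out Col10a1, Col12a1, Lum and Tek. The median SE of a difference was 0.10 for the members and for all genes, so most collagen differences cannot be told from 0 with 3 arrays a group, and without detection calls it is unknown which probe sets were above background.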
